A study of Mus musculus with 8 samples.

Results

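The genes described here are those of integrin alphaV-beta8 and of TGF-beta activation: the integrin subunits Itgb8 and Itgav, the ligands Tgfb1, Tgfb2 and Tgfb3, the receptors Tgfbr1 and Tgfbr2, and Ltbp1, Ltbp3 and Nrros, whose products hold latent TGF-beta in place. They were chosen by gene symbol, and all 10 were found among the 29442 genes counted. The choice was made with the DHEA contrast of these same libraries in view, so the treatment differences of the 10 genes are given as a description. No test of them supports a statement here, and counts of calls among them only stand beside the share over all genes.

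Poly(A) RNA of the ventral hippocampus was sequenced, taken from female mice of the strain C57BL/6 J. The mice were 6 to 8 weeks old when selected. The tissue was collected later, after the injections described next and after behavioural tests. One group of 4 mice was injected under the skin of the abdomen with DHEA (dehydroepiandrosterone, an adrenal androgen precursor) at 30 mg/kg/day for 21 days. The control group of 4 mice received sesame oil, the vehicle, in the same way. The mice carried no transgene or deletion according to the labels and methods, the libraries are named here by the numbers in their titles (DHEA 3, 4, 7 and 11, sesame oil 5, 9, 10 and 16), and the comparison asked which genes differ in the hippocampus after chronic DHEA.

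Several properties of the libraries separated the groups. Total counts on genes were 35748416 to 38038361 with DHEA and 31483772 to 35418297 with sesame oil, with no overlap (two-sided exact permutation p = 0.0286, the lowest value possible with groups of 4). Mitochondrial genes took 7.29 to 9.34% of counts with DHEA and 6.37 to 7.23% with sesame oil (exact permutation test, p = 0.0286). In each library, a gene's deviation from its mean log2 level over all libraries was correlated with the GC content of its transcript. Spearman's rho across genes was -0.16 to -0.01 with DHEA and 0.07 to 0.18 with sesame oil (exact permutation test, p = 0.0286). These values are relative to the other libraries and do not describe the level itself. Values with this GC trend removed are therefore printed beside the treatment differences of the 10 genes, and for other genes where a call ended with it. The study's own table of differentially expressed genes carries the opposite sign to the deposited labels, so groups are named by the labels, and every direction below rests on them. By qRT-PCR in further hippocampal samples, the study found Pomc higher and Avpr1a lower after DHEA, and reports this as matching its sequencing. That match refers to the study's own signs, so by the labels these genes would go against the qRT-PCR. Whether the labels or the study's signs are right was not tested. If the labels were exchanged, every direction below would turn around. The design text speaks of 6 tissues while 8 libraries were deposited.

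The labelled tissue was checked against its markers. All 14 hippocampal neuron markers examined were detected, led by Slc17a7, the vesicular glutamate transporter of excitatory neurons, at a mean of 344 FPKM (a level divided by gene length and library total). Neighbouring tissue was present to different degrees. The summed level of 8 choroid plexus markers, led by the transthyretin gene Ttr, was 6836, 351, 3491 and 6332 CPM (counts normalised to a common library total) in DHEA 3, 4, 7 and 11, and 4575, 923, 3121 and 3545 CPM in sesame oil 5, 9, 10 and 16. Anterior pituitary markers, led by prolactin (Prl), summed to 25.3 CPM in sesame oil 10 and to 0.673 to 5.51 CPM elsewhere.

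TGF-beta is secreted as a latent complex, in which the propeptide folds around the mature growth factor and keeps it from its receptors. Integrin alphaV-beta8, encoded by Itgav and Itgb8, binds an arginine-glycine-aspartate (RGD) motif in the propeptide and so frees or exposes the growth factor, while latent TGF-beta binding proteins anchor the complex in the matrix and NRROS anchors it on the surface of microglia. In the brain alphaV-beta8 is carried mainly by astrocytes and other neural precursor-derived cells, and the pathway is known for the maintenance of homeostatic microglia and of vessels.

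The coding sequence around the RGD motif is shown for the ligands because it sets which of them an RGD-binding integrin can recognise. The longest reading frames of the GENCODE vM21 transcripts were 390 codons for Tgfb1, 442 for Tgfb2 and 412 for Tgfb3. They held 1 RGD in Tgfb1 (codon 244), 1 in Tgfb3 (codon 261) and 0 in Tgfb2. The RGD codons are in capitals below, in frame and 5′ to 3′. They lie in the fifth exon of each gene, in build GRCm38, at chr7:25697142-25697150 on the plus strand for Tgfb1 and at chr12:86062165-86062173 on the minus strand for Tgfb3.
Tgfb1: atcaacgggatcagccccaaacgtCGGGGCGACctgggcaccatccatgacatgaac
Tgfb3: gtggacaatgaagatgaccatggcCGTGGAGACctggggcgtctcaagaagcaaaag

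The 10 genes were all expressed in every library, at levels per gene length that spanned more than an order of magnitude. By the deposited gene lengths Itgb8, the subunit found in no integrin other than alphaV-beta8, had the highest level, 12.2 ± 1.37 FPKM (SD, n = 8). Tgfb2 followed at 8.0 ± 0.786 FPKM and Itgav, the alpha subunit shared by several integrins, at 6.56 ± 0.725 FPKM. The receptor genes came next, with Tgfbr1 (the type I receptor kinase) at 6.26 ± 0.489 FPKM and Tgfbr2 (the type II receptor that binds the ligand first) at 5.04 ± 0.601 FPKM. Then came Ltbp3 at 4.13 ± 0.905 FPKM, Tgfb3 at 3.79 ± 0.511 FPKM and Tgfb1 at 2.46 ± 0.30 FPKM. The lowest were Ltbp1 at 1.08 ± 0.166 FPKM and the microglial anchor Nrros at 0.761 ± 0.0898 FPKM.

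Neighbours in this order were compared within libraries by a two-sided exact sign-flip permutation test of their log2 FPKM, with p adjusted by Benjamini-Hochberg over the 9 pairs. Of the 9 pairs, 7 passed. The order was itself taken from the mean FPKM of these 8 libraries, and the 1 length per gene shifts all of them alike. The p-values thus describe how steady a difference was across libraries, and do not test which gene was more abundant. Itgb8 exceeded Tgfb2 in 8 of 8 libraries, by a mean of 0.60 ± 0.17 on the log2 scale (SD, exact p = 0.0078, adjusted p = 0.0176). Tgfb2 exceeded Itgav in 8 of 8 libraries, by 0.29 ± 0.18 (SD, exact p = 0.0078, adjusted p = 0.0176). On CPM, which ignores gene length, the order of Tgfb2 and Itgav differed between libraries. The pairs that did not pass were Itgav with Tgfbr1 (0.06 ± 0.17, adjusted exact p = 0.422, higher in 3 of 8 libraries) and Ltbp3 with Tgfb3 (0.10 ± 0.37, adjusted exact p = 0.461, higher in 6 of 8). The exact test with 8 libraries cannot give a p below 0.0078.

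**Figure D1:**
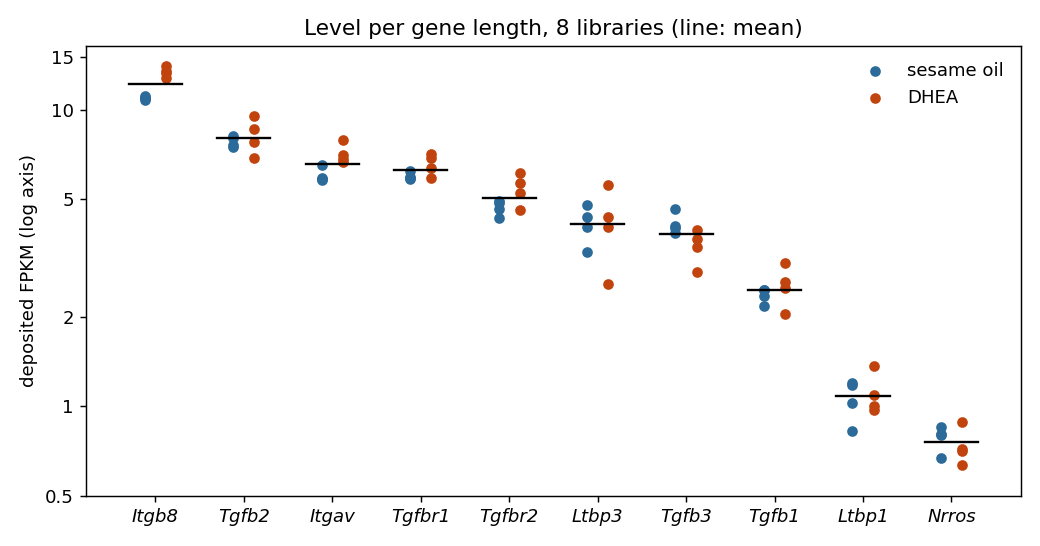
Deposited FPKM of each gene on a log axis, with the 4 sesame oil libraries in blue, the 4 DHEA libraries in orange and a line at the mean of all 8. Itgb8 stands at the top with a mean of 12.2 FPKM, and Nrros at the bottom with 0.761 FPKM.

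Among the ligands, Tgfb2 made up the largest share of the summed ligand FPKM in every library, 50.7 to 61.3% (median 55.8%). It is the ligand without the RGD motif. Tgfb3 made up 22.2 to 30.2% (median 26.9%) and Tgfb1, the main ligand of microglia, 15.8 to 22.4% (median 16.6%). Tgfb3 exceeded Tgfb1 in 8 of 8 libraries, by 0.62 ± 0.23 on the log2 FPKM scale (SD, exact permutation p = 0.0078, adjusted p = 0.0176). The ratio of Itgb8 to Itgav FPKM lay between 1.65 and 1.98 (median 1.89), at 1.89 ± 0.0866 with DHEA and 1.83 ± 0.115 with sesame oil (SD, n = 4 each), and the groups overlapped. An FPKM rests on 1 length per gene in the deposited table, so these levels shift if a gene's main transcript in the hippocampus is shorter or longer than that. The length was 8593 bases for Itgb8, 8523 for Tgfb2, 10171 for Itgav and 4788 for Tgfbr2. Their longest GENCODE vM21 transcripts have 8403, 5116, 7054 and 8092 bases. The lead of Itgb8 over Tgfb2, the place of Tgfbr2 and the ratio of Itgb8 to Itgav thus depend on the length used.

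Both subunits of alphaV-beta8 were higher in every library labelled DHEA than in any labelled sesame oil, and they were the only ones of the 10 genes whose groups did not overlap. Itgb8 was 1.25-fold and Itgav 1.2-fold higher. Of the 12780 genes whose mean count reached 100, 4.23% were higher with DHEA and had groups that did not overlap, and 4.23% were lower in this way (541 and 540 genes). In tissue, more cells that express a gene and more RNA per cell cannot be told apart.

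Itgb8 (Entrez 320910, chromosome 12, minus strand) was at 119, 113, 113 and 119.6 CPM in DHEA 3, 4, 7 and 11. It was at 92.9, 94.0, 93.4 and 92.2 CPM in sesame oil 5, 9, 10 and 16. The lowest DHEA library thus lay well above the highest sesame oil library, and the sesame oil libraries were almost equal. The means were 116 ± 3.46 and 93.1 ± 0.742 CPM (SD, n = 4 each). The log2 fold change was 0.32 (SE 0.06), and 0.25 (SE 0.06) with the GC trend removed. At 40.4% GC the Itgb8 transcript was the most AT-rich of the 10. Leaving out any 1 library gave 0.31 to 0.33. The coefficient of variation in the sesame oil group, 0.797%, was below the 1.65% that counting error alone gives at 3673 counts, the mean over both groups.

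Itgav (Entrez 16410, chromosome 2, plus strand) was at 71.0, 70.04, 70.9 and 79.8 CPM in DHEA 3, 4, 7 and 11. It was at 58.8, 58.6, 58.7 and 66.0 CPM in sesame oil 5, 9, 10 and 16. In each group 1 library, DHEA 11 and sesame oil 16, stood above the other libraries, which were close to each other. The means were 72.9 ± 4.60 and 60.5 ± 3.65 CPM (SD, n = 4 each), with a log2 fold change of 0.27 (SE 0.07), or 0.22 (SE 0.07) with the GC trend removed. Leaving out 1 library gave 0.22 to 0.31. On the opposite strand the noncoding gene Gm13684 shares 5.90% of the Itgav exon bases, and the strand setting of the counting is not given in the sources used here.

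**Figure D2:**
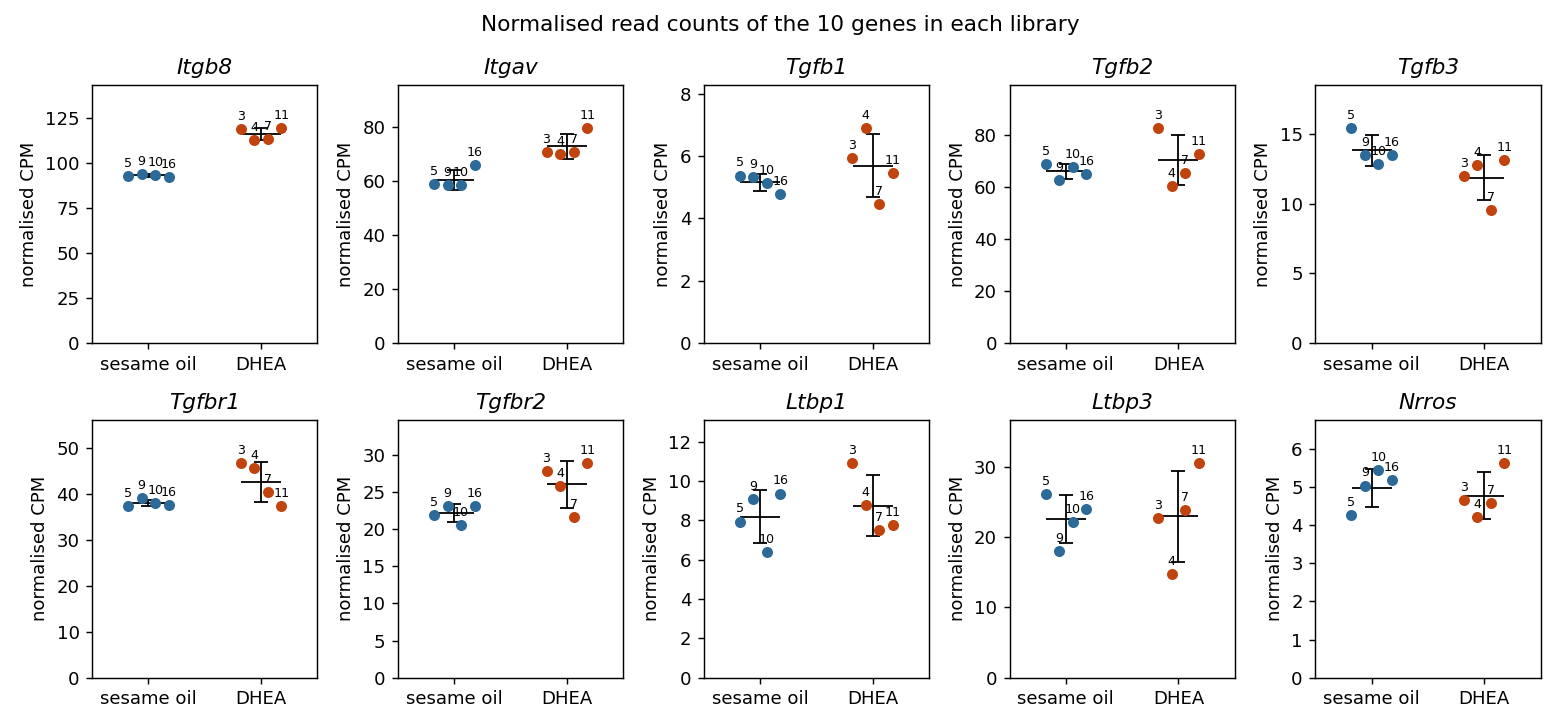
Normalised CPM of each of the 10 genes in every library, with sesame oil in blue and DHEA in orange, library numbers beside the points and the mean ± SD drawn in black. Itgb8 and Itgav show separate groups, at 113 to 119.6 against 92.2 to 94.0 CPM and at 70.04 to 79.8 against 58.6 to 66.0 CPM, while the groups overlap for the other 8 genes.

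The upstream sequence of both integrin genes is printed because these subunits were the ones with separate groups. It covers the 250 bases before the start site of RefSeq, in build GRCm38.p6, at chr12:119238277-119238526 on the minus strand for Itgb8 and at chr2:83724147-83724396 on the plus strand for Itgav. Capitals mark CAGAC, a box bound by SMAD proteins.
Itgb8: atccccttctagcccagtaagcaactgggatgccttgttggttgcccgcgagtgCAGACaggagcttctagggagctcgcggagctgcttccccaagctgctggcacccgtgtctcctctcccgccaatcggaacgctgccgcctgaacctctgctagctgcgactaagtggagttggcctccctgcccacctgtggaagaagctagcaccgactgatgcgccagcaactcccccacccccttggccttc
Itgav: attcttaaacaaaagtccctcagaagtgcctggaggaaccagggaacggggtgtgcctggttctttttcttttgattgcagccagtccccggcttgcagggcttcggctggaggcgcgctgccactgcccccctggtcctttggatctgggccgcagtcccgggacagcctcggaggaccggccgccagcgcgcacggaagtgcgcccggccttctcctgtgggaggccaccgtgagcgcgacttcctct
Searched on both strands, CAGAC was found 1 time before Itgb8 and 0 times before Itgav, and 42.2% of the 32851 mouse windows of this length hold it. The palindromic androgen response element (AGAACA, any 3 bases, TGTTCT) was in none of the windows of the 9 genes matched, and in 3 of all windows (0.00913%). The SMAD palindrome GTCTAGAC was in none of them either, and in 55 of all windows (0.167%). A match or its absence describes the letters in this window. Tgfb3 was not matched in the promoter table.

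The ligand genes differed less between the groups, and in all of them the groups overlapped. Tgfb1 (chromosome 7) was at 5.92, 6.90, 4.47 and 5.45 CPM in DHEA 3, 4, 7 and 11, and at 5.37, 5.34, 5.13 and 4.79 CPM in sesame oil 5, 9, 10 and 16. The DHEA libraries lay on both sides of the sesame oil libraries. Its log2 fold change was 0.14 (SE 0.16), 0.15 with the GC trend removed, 0.03 without DHEA 4 and 0.24 without DHEA 7.

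Tgfb2 (chromosome 1) was at 82.8, 60.6, 65.5 and 72.8 CPM in DHEA 3, 4, 7 and 11. It was at 68.8, 62.7, 67.7 and 64.9 CPM in sesame oil 5, 9, 10 and 16. DHEA 3 and DHEA 4 were the highest and the lowest of the 8 libraries, and these are also the libraries with the most and the least choroid plexus markers (6836 and 351 CPM). The part of choroid plexus in the Tgfb2 values was not tested. The log2 fold change of Tgfb2 was 0.09 (SE 0.08), 0.07 with the GC trend removed, 0.01 without DHEA 3 and 0.15 without DHEA 4.

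Tgfb3 (chromosome 12) was the only ligand with a lower mean under DHEA, 11.9 ± 1.62 against 13.8 ± 1.11 CPM (SD, n = 4 each). Its values were 11.98, 12.8, 9.54 and 13.1 CPM in DHEA 3, 4, 7 and 11. The sesame oil libraries 5, 9, 10 and 16 had 15.4, 13.5, 12.9 and 13.5 CPM. Only DHEA 11 reached into the sesame oil range. The log2 fold change was -0.22 (SE 0.12), -0.21 with the GC trend removed, and -0.27 to -0.13 when 1 library was left out. Exons on the opposite strand, of Gm37804 and Gm48008, share 4.82% and 7.60% of the Tgfb3 exon bases.

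The receptor genes had higher means under DHEA. Tgfbr2 (chromosome 9) was at 27.8, 25.8, 21.7 and 29.0 CPM in DHEA 3, 4, 7 and 11, and at 21.9, 23.2, 20.6 and 23.2 CPM in sesame oil 5, 9, 10 and 16. Of the DHEA libraries only DHEA 7 lay within the sesame oil range. The log2 fold change of Tgfbr2 was 0.23 (SE 0.10), the same value with the GC trend removed, and 0.18 to 0.31 when 1 library was left out.

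Tgfbr1 (chromosome 4) was at 46.7, 45.6, 40.4 and 37.3 CPM in DHEA 3, 4, 7 and 11. It was at 37.3, 39.0, 37.9 and 37.5 CPM in sesame oil 5, 9, 10 and 16. DHEA 3, 4 and 7 were above all sesame oil libraries and DHEA 11 was level with the lowest of them. The log2 fold change was 0.16 (SE 0.08), and 0.10 (SE 0.07) with the GC trend removed. The Tgfbr1 transcript, at 41.0% GC, is nearly as AT-rich as that of Itgb8.

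Among the anchors of the latent complex, the direction of the small differences of Ltbp3 and Ltbp1, but not of Nrros, depended on single libraries. Ltbp3 (chromosome 19) was at 22.6, 14.7, 23.8 and 30.5 CPM in DHEA 3, 4, 7 and 11. It was at 26.1, 17.96, 22.1 and 23.9 CPM in sesame oil 5, 9, 10 and 16. The DHEA libraries held both the highest and the lowest value, and the lowest in each group, DHEA 4 and sesame oil 9, were also the libraries with the least choroid plexus markers in their groups (351 and 923 CPM), a relation that was not tested. Its log2 fold change was 0.03 (SE 0.16), 0.06 with the GC trend removed, -0.14 without DHEA 11 and 0.18 without DHEA 4.

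Ltbp1 (chromosome 17) ranged from 7.52 to 10.9 CPM with DHEA and from 6.39 to 9.36 CPM with sesame oil. Its log2 fold change was 0.10 (SE 0.15), 0.11 with the GC trend removed, and -0.03 without DHEA 3, the library with its highest value. Nrros (chromosome 16), which encodes the anchor of latent TGF-beta1 on microglia, ranged from 4.21 to 5.64 CPM with DHEA and from 4.26 to 5.44 CPM with sesame oil. The log2 fold change of Nrros was -0.06 (SE 0.16), -0.05 with the GC trend removed, and -0.15 to -0.01 when 1 library was left out. Its groups covered nearly the same range.

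Counted over the 10 genes, 8 had a higher mean with DHEA and the median log2 fold change was 0.12, while the median over all 27612 genes tested was 0.01. By edgeR without adjustment (p under 0.05), 3 of the 10 (Itgb8, Itgav and Tgfbr2) were called, all higher with DHEA, beside 9.31% of all genes tested (4.82% higher and 4.49% lower with DHEA). With DESeq2 and an adjusted p under 0.05, 2 of the 10 (Itgb8 and Itgav) were called, both higher with DHEA, beside 1.21% of the genes that received an adjusted p (0.642% higher with DHEA). None of the 10 reached a fold of 2 (0 of 10), which 1.6% of all genes tested did together with an unadjusted p under 0.05. Since the genes were chosen on this contrast, nothing is read from these counts. After Benjamini-Hochberg adjustment, edgeR's quasi-likelihood test called 0 of all genes (0.0%, smallest adjusted p = 0.0569), against 2571 at an unadjusted p under 0.05 and 153 with DESeq2. Without DHEA 7, edgeR's adjusted count was 93.

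**Figure D3:**
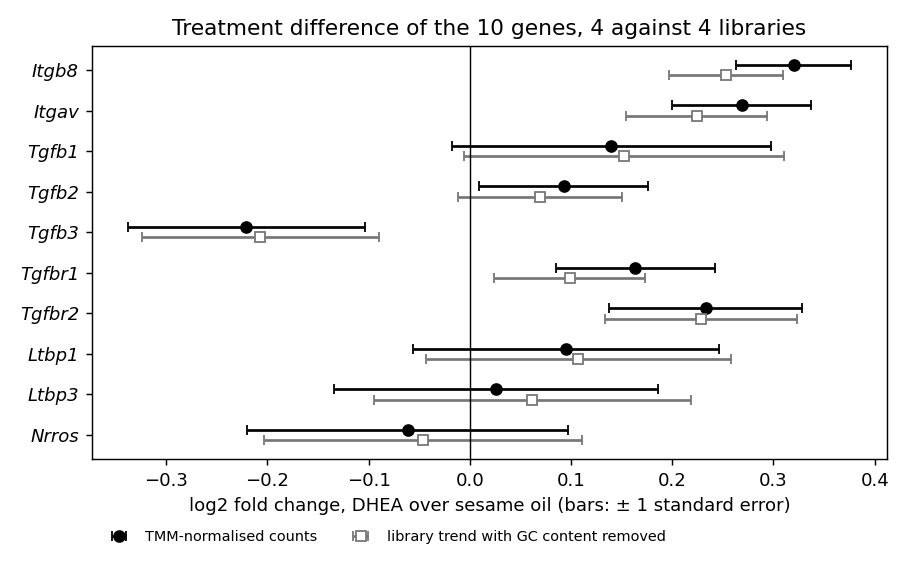
Log2 fold change of each gene, DHEA over sesame oil, with bars of ± 1 SE, from TMM-normalised counts (filled) and with the trend of each library with GC content removed (open). Itgb8 moves most between the estimates, from 0.32 to 0.25, and Tgfb3 and Nrros lie below 0.

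The libraries labelled DHEA were the more variable ones. The coefficient of variation of CPM was larger with DHEA than with sesame oil for all 10 genes (10 of 10), for example 2.97% against 0.797% for Itgb8. The same was true of 70.5% of the 12780 genes whose mean count reached 100.

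Covariation within the groups does not use the treatment contrast. Deviations of log2(CPM + 0.5) from the group means were correlated over the 8 libraries for the 45 pairs of the 10 genes, with exact permutation over all pairings of libraries within groups. By Pearson's r, 0 pairs had an unadjusted p under 0.05, and the smallest adjusted exact permutation p was 0.802. The pair with the smallest p was Itgav and Tgfbr1, with r = -0.62 (exact permutation p = 0.0729), Spearman's rho = -0.52 (exact permutation p = 0.319) and r = -0.36 without the 2 libraries farthest from the median. Itgb8 and Itgav, the subunits of one integrin, had r = 0.33 (exact permutation p = 0.708), rho = 0.45 (exact permutation p = 0.424) and r = -0.29 without the 2 farthest libraries. By Spearman's rho the smallest p was that of Tgfbr1 and Ltbp3, with rho = -0.83 (exact permutation p = 0.0278), which did not pass adjustment over the pairs (adjusted p = 0.757). Their Pearson's r was -0.74 (exact permutation p = 0.116), and -0.93 without the 2 farthest libraries. With 8 libraries only very strong covariation could pass.

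The genes whose deviations within groups were most like those of Itgb8, among 12779 other genes whose mean count reached 100, were Serpinb9 (r = 0.97), Lama1 (r = 0.96) and Paqr5 (r = 0.95). Serpinb9 encodes an inhibitor of granzyme B, and Lama1 a laminin chain of basement membranes. Those least like it were Shank3 (r = -0.97), a scaffold of the postsynaptic density, Tcaim (r = -0.96) and Mtss2 (r = -0.94). These are descriptions over 8 libraries, and libraries that differ in depth or base composition do so for all genes at once. Of the other 9 genes of the activation group, Tgfb2 was the most like Itgb8 (r = 0.77, rank 227) and Tgfbr1 the least (r = -0.19, rank 8752).

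The wider pathway was described by 8 lists of 101 distinct genes. At an unadjusted p under 0.05, edgeR called 13 of them (12.9%), 9 higher and 4 lower with DHEA, beside 9.31% of all genes tested, and 0 had an adjusted p under 0.05. Without sesame oil 5 the 13 became 8. Their median log2 fold change was 0.06.

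Among 15 other integrin subunits, the most abundant was Itgb1 at 19.7 FPKM. Itgb1, which pairs with alphaV and most other alpha subunits, was at 89.7 ± 9.37 CPM with DHEA and 75.6 ± 4.21 CPM with sesame oil (SD, n = 4 each), a log2 fold change of 0.25 (SE 0.08, edgeR adjusted p = 0.306). Itga1, a collagen receptor subunit, had 0.30 (adjusted p = 0.426), and Itga10, another one, -0.63 (adjusted p = 0.522, and -0.36 without DHEA 4). The list's median was 0.13, and 0.07 without DHEA 11, 0.01 in the 6 libraries with consecutive sample numbers and 0.01 with limma on log2(FPKM + 1). Of its genes 2 were called higher, beside 4.82% of all genes tested, and 1 lower, beside 4.49%.

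Of 10 further genes of the latent complex and its matrix anchors, 8 had a negative log2 fold change, as did 13471 of the 27612 genes tested. The list's median was -0.12, which became -0.04 without DHEA 7 and -0.25 without DHEA 11. Of its genes 2 were called lower, beside 4.49% of all genes tested. Ltbp4, a latent TGF-beta binding protein that attaches to elastic fibres, was at 50.5 ± 5.14 CPM with DHEA and 60.3 ± 6.15 CPM with sesame oil (log2 fold change -0.25, SE 0.08, edgeR adjusted p = 0.347). Fbn2, a microfibril protein, had -0.41 (adjusted p = 0.516), which became -0.64 without DHEA 7. The most abundant gene of the list was Dcn, whose product decorin binds TGF-beta, at 29.8 FPKM.

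The 10 other activators of latent TGF-beta were led by the plasminogen activator Plat (15.1 FPKM). The 10 coreceptors and related type I receptors were led by Acvr1b (24.6 FPKM). In both lists 0 genes had an unadjusted p under 0.05, beside 9.31% of all genes tested. The medians were 0.10 for the activators, which became 0.01 without DHEA 11, and 0.01 for the coreceptors and receptors. Of 16 genes of SMAD signalling and its inhibitors, led by the corepressor Ski (27.6 FPKM), 1 was called higher, beside 4.82% of all genes tested. This was Skil, the TGF-beta-induced corepressor SnoN, at 115 ± 7.42 CPM with DHEA and 98.5 ± 5.96 CPM with sesame oil, with groups that did not overlap and a log2 fold change of 0.22 (SE 0.07, edgeR adjusted p = 0.293). Groups were separate in this direction for 4.23% of the genes whose mean count reached 100, and in the other direction for 4.23%. Without a call, groups were also separate for Smad7, higher with DHEA by a narrow gap (18.504 to 19.8 against 16.7 to 18.502 CPM). Ski, not called either, was lower with DHEA without overlap (138 to 151.6 against 151.8 to 158.7 CPM). The list's median was 0.04, and 0.02 without DHEA 4.

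The 20 TGF-beta target genes, led by Timp3 (32.2 FPKM), showed no common direction, with a median of 0.01 (-0.11 without DHEA 3 and 0.10 without DHEA 7) and 11 genes above 0. Skil, which is on this list too, and Pmepa1, a feedback inhibitor of the pathway, were called higher, beside 4.82% of all genes tested. Pmepa1 was at 25.7 ± 0.790 CPM with DHEA and 22.8 ± 1.16 CPM with sesame oil, with no overlap (log2 fold change 0.17, SE 0.08, edgeR adjusted p = 0.531). Such separate groups, higher with DHEA, were found in 4.23% of genes whose mean count reached 100. Smad7, separate as given above, is also on this list. For Pmepa1 edgeR's unadjusted p stayed under 0.05 in only 1 of the 8 fits that left out 1 library. Junb, an immediate early transcription factor, was the 1 gene called lower, beside 4.49% of all genes tested. Its log2 fold change was -0.24 (edgeR adjusted p = 0.511), which became -0.16 without DHEA 3. With the GC trend removed it was -0.19, with an unadjusted p of 0.0914.

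**Figure D4:**
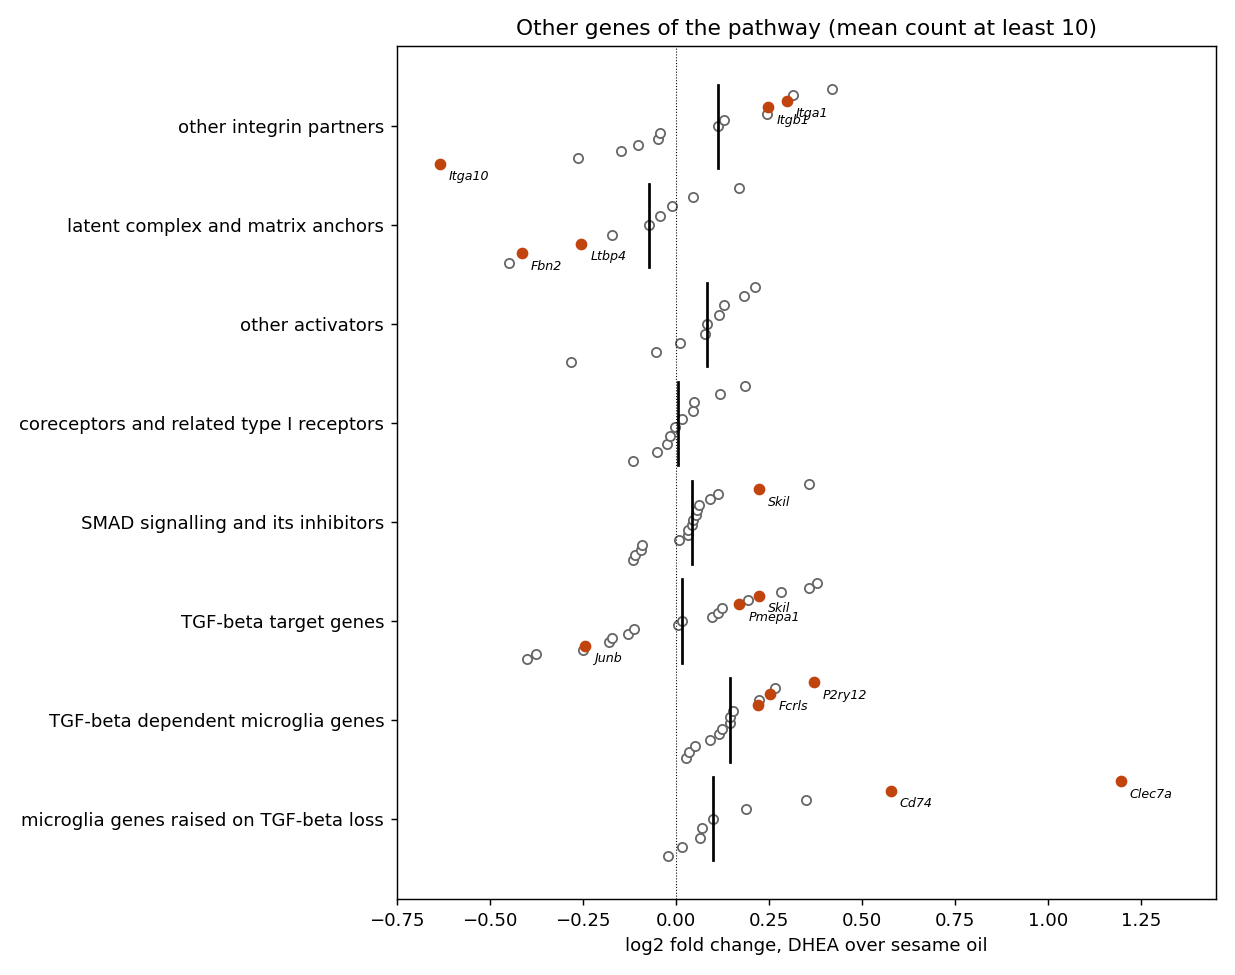
Log2 fold change, DHEA over sesame oil, of the genes of the 8 lists whose mean count reached 10, with a line at the median of the genes drawn and filled points for an unadjusted p under 0.05, most of them named. The 14 TGF-beta dependent microglia genes all lie above 0, and Clec7a, at 1.19, has the largest fold change drawn.

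Microglia depend on TGF-beta for their homeostatic genes. All 14 genes on the list of TGF-beta dependent microglia genes had a positive log2 fold change, as did 14141 of the 27612 genes tested, and 3 were called higher, beside 4.82% of all genes. Their median was 0.15, and 0.06 without DHEA 4, the library with the most microglia markers. The purinergic receptor gene P2ry12 was at 54.6 ± 13.5 CPM with DHEA and 42.2 ± 2.86 CPM with sesame oil (log2 fold change 0.37, SE 0.12, edgeR adjusted p = 0.341, and 0.19 without DHEA 4). Fcrls, an Fc receptor-like gene, had 0.25 (adjusted p = 0.531), which became 0.15 without DHEA 4. With the GC trend removed it was 0.24, close to the value before, with an unadjusted p of 0.0588 by edgeR. The most abundant gene of this list, Sparc (117 FPKM), is also expressed by astrocytes and endothelium. Of 11 genes that rise in microglia when TGF-beta is lost, 10 were above 0 and 2 were called higher, beside the same 4.82%. These were the pattern receptor Clec7a (1.19, SE 0.47, adjusted p = 0.436, mean count 19.1) and Cd74, an antigen presentation chaperone (0.58, SE 0.26, adjusted p = 0.516, and 0.24 without DHEA 3). Most genes of both microglial lists thus had positive values, and few of them were called.

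General markers of glia also had higher values with DHEA. Microglia markers such as C1qa and Itgam had 6 of 10 genes called higher, led by cathepsin S (Ctss, 35.1 FPKM), beside 4.82% of all genes tested, and all 10 above 0. Their summed level was 225, 265, 204 and 207 CPM in DHEA 3, 4, 7 and 11 and 163, 203, 184 and 174 CPM in sesame oil 5, 9, 10 and 16. The groups did not overlap (exact permutation test, p = 0.0286, adjusted p = 0.200 over 21 lists). None of the microglia markers was at 0. Nrros, which is expressed by microglia, had a log2 fold change of -0.06 (SE 0.16) beside a median of 0.30 for these markers. The part of microglial content in the list of TGF-beta dependent genes was not tested.

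Astrocytes, which express Itgb8, had 6 of 10 markers called higher, led by the glutamate transporter gene Slc1a2 (291 FPKM), beside 4.82% of all genes tested. With the GC trend removed 4 of the 10 were called. Fold changes on the log2 scale went from 0.18 to 0.15 for Slc1a2, from 0.15 to 0.12 for Slc1a3 and from 0.17 to 0.11 for Gja1, with unadjusted p-values by edgeR of 0.0579, 0.0879 and 0.134. Aldoc, named after its values were seen, went from 0.13 to 0.14 and was called (edgeR's unadjusted p = 0.0427). Without DHEA 4, Slc1a2 had 0.12 and Slc1a3 0.10. The summed level of the astrocyte markers was 6418, 7630, 6858 and 6734 CPM in DHEA 3, 4, 7 and 11 and 5645, 6523, 6014 and 6269 CPM in sesame oil 5, 9, 10 and 16 (exact permutation test, p = 0.0571, adjusted p = 0.200), with overlap. The median log2 fold change of these markers was 0.17, below the 0.32 of Itgb8. Oligodendrocyte precursors, which also express Itgb8, had 2 of 8 markers called higher, beside the same 4.82%, and a median of 0.12, with overlapping sums of 482 to 569.6 CPM against 462 to 526 CPM. The most abundant precursor marker was Cspg5 (50.4 FPKM).

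Oligodendrocyte markers, such as the myelin gene Mbp, had 8 of 8 called higher, beside 4.82% of all genes tested, and a median of 0.39. Their sum was 6531, 8254, 6460 and 6737 CPM in DHEA 3, 4, 7 and 11 and 5210, 6270, 5190 and 4401 CPM in sesame oil 5, 9, 10 and 16, without overlap (exact permutation test, p = 0.0286, adjusted p = 0.200). DHEA 4 had the most oligodendrocyte, microglia and astrocyte markers of all libraries and the lowest Itgb8 and Itgav of its group. Without DHEA 4 the log2 fold change of Itgb8 stayed within 0.31 to 0.33. The part of glial content in the Itgb8 and Itgav values was not tested.

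Endothelial markers, of cells that respond to TGF-beta, had 3 of 10 called higher, beside 4.82% of all genes tested, and a median of 0.02, led by Cldn5 (20.1 FPKM). Slco1a4 and Ly6c1 were among those called. Neuron markers, led by Snap25 (715 FPKM), had 0 called higher and 1 lower of 8, beside 4.49% of all genes called lower. That gene was Rbfox3, the neuronal splicing factor NeuN, with a log2 fold change of -0.16 (SE 0.05, edgeR adjusted p = 0.348). The summed neuron markers overlapped between groups (exact permutation test, p = 0.771).

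**Figure D5:**
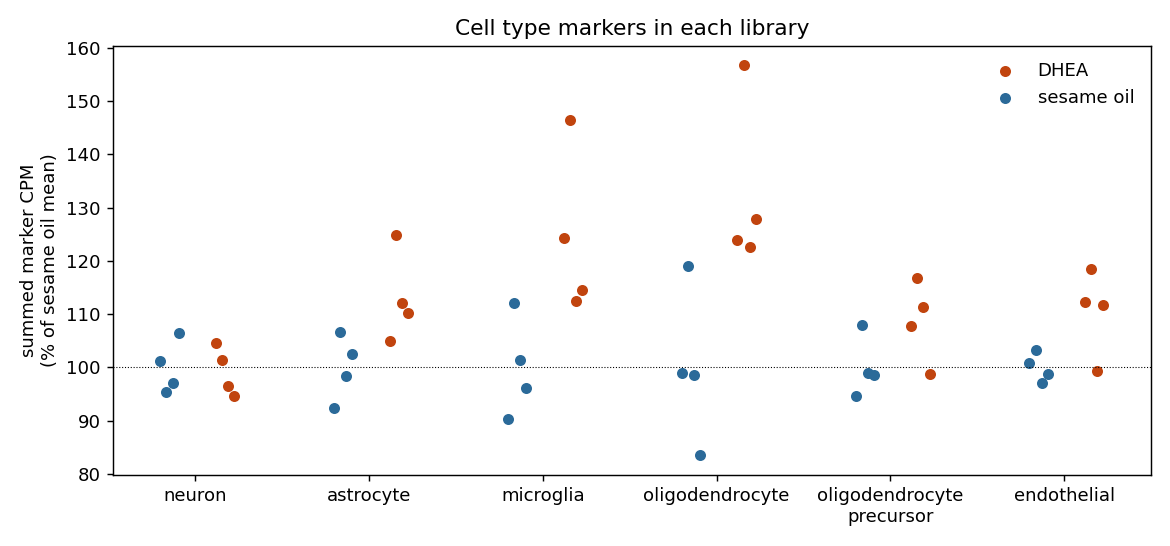
Summed CPM of the markers of 6 cell types in each library, as a percentage of the sesame oil mean, with sesame oil in blue and DHEA in orange. The DHEA libraries lie above the sesame oil libraries without overlap for microglia and oligodendrocytes and with overlap for astrocytes, precursors and endothelium, and the groups cover one range for neurons.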

How the data were processed

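Poly(A) RNA-seq libraries of 8 ventral hippocampi, 4 labelled DHEA and 4 labelled sesame oil, were analysed. The authors deposited raw counts of reads on genes, together with FPKM values. Per the submitters' processing notes the reads were processed with fastp, HISAT2 and HTSeq on GRCm39. Versions, annotation and strand setting are not given in the sources used here. The deposited FPKM values equal the counts divided by the library total and 1 length per gene, within 0.1% for 25234 of 25234 genes with values in at least 2 libraries, so they hold no further measurement.

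The 10 genes and all lists were chosen with earlier results of these data known. TMM normalization and the quasi-likelihood test of edgeR 4.0.16 (R 4.3.3, prior count 0.125) were run on the 27612 genes with at least 1 count, with Benjamini-Hochberg adjustment over all of them. Totals of 31483772 to 38038361 make 3 counts equal to 0.0789 to 0.0953 CPM, a floor for counting error only. Single values were compared by two-sided exact permutation over the 70 allocations of 4 against 4, calculated in Python 3.11.15. Replicates of a group differed by 7.82 to 57.3 times the sampling variance, so none was merged. Nothing in the labels ties a library to a cage or batch, and p-values measure the spread between these samples. Columns of the authors' own comparison (fold changes and p-values) were not used.

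Named genes were the 10, list genes with an unadjusted p under 0.05, the most abundant gene of each list, and the 3 most and 3 least like Itgb8, with Aldoc added after its values were seen. Not all genes that the rule allows are reported here. Sequences came from GENCODE vM21 and RefSeq (GRCm38), with no coordinates set against the files. GC content was matched for 92.7% of genes whose mean count reached 10 (15594 of 16813), and its trend was removed by lowess (span 0.3).

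The alternatives were DESeq2 1.42.0, RLE or median-of-ratios scaling, at least 10 counts, filterByExpr, a prior count of 1, limma 3.58.1 on log2(FPKM + 1) and log2(FPKM + 0.1), the GC trend removed, 6 libraries with consecutive sample numbers, and leaving out each library. For levels and correlations TPM, CPM and pseudocounts of 0.1 and 2 were used. Counts were simulated for 26679 genes with the gene means of these libraries. The dispersion followed its trend with level, not each gene's own value. The changed genes were drawn only from those whose mean count reached 100, and no GC trend was simulated. On these counts edgeR recovered 77.4% of 62 genes changed 1.5-fold, 94.2% of 69 changed 2-fold and 100% of 69 changed 4-fold, with 8 false calls. DESeq2 recovered 77.4%, 97.1% and 100% of the same genes, with 34 false calls.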

Additional observations from a re-analysis of the deposited data

Results flagged for a closer look

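In 68 groups of 4 libraries, 1 library stood far from the other 3 by Dixon's ratio (its gap to the nearest, divided by the range) in 8 cases, where chance gives about 1 in 20, or 3.4. Itgav was at 79.8 CPM in DHEA 11 against 70.04 to 71.0 in the rest of its group (ratio 0.905), and at 66.0 CPM in sesame oil 16 against 58.6 to 58.8 (ratio 0.979).

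The summed level of the other integrin subunits was 275 CPM in sesame oil 9 against 286 to 287 in its group (ratio 0.935). In the same library the coreceptors and related receptors summed to 386 CPM against 399 to 399.8 (ratio 0.978). The SMAD signalling genes summed to 874 CPM in DHEA 7 against 947 to 957 (ratio 0.880), and to 945 CPM in sesame oil 10 against 923 to 926 (ratio 0.871).

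Oligodendrocyte markers summed to 8254 CPM in DHEA 4 against 6460 to 6737 (ratio 0.845). Anterior pituitary markers summed to 25.3 CPM in sesame oil 10 against 2.19 to 5.51 (ratio 0.856).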

How the results depend on the processing

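Genes with an adjusted p under 0.05 numbered 0 with edgeR, 153 with DESeq2, 38 with the 6 libraries of consecutive sample numbers and 0 to 93 when 1 library was left out (93 without DHEA 7, 12 without DHEA 11). Genes with an unadjusted p under 0.05 and a fold of 2 numbered 442, against 164 with DESeq2, 284 with at least 10 counts, 62 with filterByExpr, 48 with limma on log2(FPKM + 0.1) and 1 on log2(FPKM + 1). The last 2 settings compress low genes. Genes of the pathway lists with an unadjusted p under 0.05 numbered 13, against 8 with at least 10 counts, 8 with filterByExpr, 8 with limma on log2(FPKM + 1) and 8 to 19 when 1 library was left out (8 without sesame oil 5). Among these 13, Itgb1, Ltbp4, Skil and P2ry12 kept an unadjusted p under 0.05 without each of the 8 libraries in turn, Itga1 without 5, Clec7a without 4, Itga10, Junb and Cd74 without 3, Fbn2 and Fcrls without 2 and Pmepa1 without 1. Pairs correlated by Pearson's r at an unadjusted exact permutation p under 0.05 numbered 0, against 1 with RLE scaling and 0 to 3 when 1 library was left out (3 without DHEA 3), with 0 after adjustment in each of these settings.

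The direction of the log2 fold change held in 18 of 18 settings for 8 of the 10 genes, in 16 for Ltbp1 and in 13 for Ltbp3. Itgb8 had 0.25 with the GC trend removed and 0.27 with limma on log2(FPKM + 1), and in the 6 libraries Ltbp3 had -0.24 and the median of the other activators was -0.05. Scaling moved the median of all genes by less than 0.1. Of the neighbour pairs in the order of levels 7 passed in each setting. On CPM, which ignores gene length, these were not the same pairs, and 1 had the opposite order. There the order of Tgfb2 and Itgav differed between libraries (82.8 and 71.0 CPM in DHEA 3, 60.6 and 70.04 CPM in DHEA 4), as did that of Tgfbr2 and Ltbp3. Itgav exceeded Tgfbr1, and Ltbp3 exceeded Tgfb3, in every library on CPM. No paired analysis was possible because the groups share no library number in the labels. Depth limits Nrros and Tgfb1 most, whose mean counts were 170.2 and 189.8 per library.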

Other observations

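Cells around the vessels and at the borders of the tissue, which also express TGF-beta pathway genes, were described by further marker lists. Of 8 mural cell markers 1 was called higher with DHEA at an unadjusted p under 0.05, the pericyte gene Rgs5, at 182 ± 32.4 CPM against 153 ± 4.92 CPM (SD, n = 4 each, log2 fold change 0.25, edgeR adjusted p = 0.395, and 0.13 without DHEA 4). Of all genes tested 4.82% were called higher. Of 10 border macrophage and leukocyte markers 1 was called higher, the mannose receptor gene Mrc1, at 7.40 ± 2.23 CPM against 5.46 ± 0.334 CPM (log2 fold change 0.44, edgeR adjusted p = 0.490). With the GC trend removed Mrc1 had a log2 fold change of 0.39, with an unadjusted p of 0.0518 by edgeR, just past the threshold. Of 8 fibroblast markers, led by Igf2 at 38.6 FPKM, 0 were called, and their sum ranged from 176 CPM in DHEA 4 to 462 CPM in DHEA 3, the libraries that also had the lowest and the highest Tgfb2.

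Of 8 anterior pituitary markers 2 were called lower with DHEA, beside 4.49% of all genes tested, the growth hormone gene Gh (edgeR adjusted p = 0.0818) and prolactin, Prl (edgeR adjusted p = 0.0647). Gh was at 0.0205 ± 0.0411 CPM with DHEA and 2.25 ± 3.19 CPM with sesame oil (SD, n = 4 each). The sesame oil mean rested on sesame oil 10, at 6.95 CPM, and was 0.682 CPM without it. Of 5 red blood cell markers 0 were called.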
